A study of Mus musculus with 5 samples.

Results

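A set of 9 imprinted genes was followed in bone marrow hematopoietic stem cells (HSCs) and progenitors of mice. They are Meg3, Rian, Mirg, H19, Grb10, Ndn, Plagl1, Peg3 and Impact, and they were chosen by symbol with their UMI counts in these same libraries, reporter-positive against the rest, already known. Of the 9 genes, 7 have a row among the 15287 genes of the count table. Rian and Mirg have none, also under their RefSeq synonyms, and were not analysed here. Since the choice used these values, the levels below are a description and carry no test.

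The data are single-cell transcriptomes of 12893 cells in 5 libraries, made with a kit that captures the 3' ends of transcripts and tags each captured molecule with a unique molecular identifier (UMI). All cells were CD45.2+ bone marrow cells of untreated mice, 20 weeks old, of the strain Fgd5CreERT2/+Rosa26Tomato/+. In this model CreERT2 and a ZsGreen reporter are driven from the Fgd5 locus, so 1 copy of Fgd5 is replaced in all cells, and a Tomato gene that Cre can switch on lies in the Rosa26 locus. Of the libraries, 3 held lineage-negative c-kit+ cells (Lin-kit+ a, b and c, with 1339, 4095 and 6147 cells), which are mostly committed progenitors. One library held Lin-kit+ cells that were positive for the Fgd5 reporter (Fgd5+, 793 cells), and another held reporter-positive cells that also met a Sca1+CD150+CD48- phenotype (HSC-Fgd5+, 519 cells). The table names the libraries by number only. Numbers were tied to populations through the cell number that the study gives for each population, and every comparison between populations depends on that link. The title and the source of the reporter-positive samples disagree on which of them had the full HSC phenotype, so the order of these libraries may be exchanged. The number of mice is not given in the sources used here, and the spread between libraries may be technical.

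An imprinted gene is expressed mainly from the allele of 1 parent. Many imprinted genes encode growth factors, growth inhibitors or long noncoding RNAs, are active in the embryo and are later silenced in most tissues, and several of them are known to stay on in adult stem cells. UMI counts do not tell the alleles apart, so parental origin was not measured here.

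The libraries held 2166655 to 36080242 UMIs, with medians of 3721 to 6567 UMIs per cell. Levels are given as CPM, the UMIs of a gene scaled to a library of 1000000 UMIs, with the exact 95% Poisson interval in parentheses, which covers counting error only. The interval takes UMIs as independent, and is too narrow where the UMIs of a gene gather in few cells. Levels are not compared between genes, since how well each transcript is captured was not measured. Cd48, which the HSC gate excludes, stood at 6.24 CPM in the Fgd5+ and 1.85 CPM in the HSC-Fgd5+ library. The label of stem cells was checked with 12 HSC marker genes, whose summed level was 1990 and 2154 CPM in the Fgd5+ and HSC-Fgd5+ libraries and 71.8 to 76.5 CPM in the Lin-kit+ libraries. A list of 10 stromal genes, 4 with a row, summed to 13.9 and 17.1 CPM in the reporter-positive libraries and to 22.1 to 30.2 CPM in the Lin-kit+ libraries, although its member Col1a2 was higher in the former (6.96 and 10.2 CPM, and 0.27 to 0.61 CPM in the latter). Of 8 endothelial genes, 6 had a row and summed to 24.5 and 36.5 CPM in the same order, and to 0.67 to 1.12 CPM in Lin-kit+ cells, through Cldn5 and Kdr, while the defining endothelial gene Cdh5 had 1 and 0 UMIs in the reporter-positive libraries. Barcodes shared between libraries numbered 62, of which 17 joined a Lin-kit+ library to a reporter-positive one.

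Meg3, a maternally expressed long noncoding RNA, stood far higher in the reporter-positive libraries. Its level was 0.80 (0.35-1.58), 1.23 (0.78-1.85) and 0.998 (0.70-1.38) CPM in Lin-kit+ a, b and c, from 8, 23 and 36 UMIs. In the Fgd5+ library it was 293 CPM (277-310, 1223 UMIs), and in the HSC-Fgd5+ library 386 CPM (360-413, 836 UMIs). The groups were far apart, and the ratio of their mean CPM was 336. A fit across all genes (edgeR, scaled by TMM factors) gave a log2 fold change of 7.81 with a standard error of 0.18. In sums over a library, fewer cells of a type and less RNA per cell cannot be told apart.

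Meg3 lies in an imprinted cluster on chromosome 12 (GRCm38, chr12:109541001-109571726, plus strand, annotated as a lincRNA), 77.7 kb downstream of Dlk1, which is expressed from the paternal allele. The annotation places 118 genes from Dlk1 to Dio3, 67 of them miRNA genes, and only Dlk1 and Meg3 of these have a row here. Rian (chr12:109603940-109661716) and Mirg (chr12:109729764-109749460) follow on the same strand and are host transcripts of small RNAs. Ndn lies on chromosome 7 (chr7:62346569-62350262, plus strand) and Grb10 on chromosome 11 (chr11:11930508-12038683, minus strand), both protein-coding. Meg3, Ndn and Grb10 had higher levels in the reporter-positive libraries, as had the other measured genes. Their RefSeq promoter windows (GRCm38.p6, from 250 bases before to 50 bases after the transcript start, 5' to 3' on the gene's strand) are shown. They cover chr12:109540746-109541045 (Meg3), chr7:62348027-62348326 (Ndn) and chr11:12037371-12037670 (Grb10). Capitals mark matches, on either strand, to TGACGTCA (cyclic AMP response element), TATAAA (core promoter element), GCATGCGC (NRF1) and GGGGCCCC (PLAGL1). In Meg3, the run of capitals nearest the transcript start joins 2 overlapping matches to the core promoter element on opposite strands.

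Meg3: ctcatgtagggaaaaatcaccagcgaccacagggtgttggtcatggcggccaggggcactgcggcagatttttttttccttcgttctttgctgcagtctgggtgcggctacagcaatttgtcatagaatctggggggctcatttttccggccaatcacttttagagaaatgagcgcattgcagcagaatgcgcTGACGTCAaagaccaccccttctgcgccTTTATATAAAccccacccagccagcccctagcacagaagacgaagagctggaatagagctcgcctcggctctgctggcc
Ndn: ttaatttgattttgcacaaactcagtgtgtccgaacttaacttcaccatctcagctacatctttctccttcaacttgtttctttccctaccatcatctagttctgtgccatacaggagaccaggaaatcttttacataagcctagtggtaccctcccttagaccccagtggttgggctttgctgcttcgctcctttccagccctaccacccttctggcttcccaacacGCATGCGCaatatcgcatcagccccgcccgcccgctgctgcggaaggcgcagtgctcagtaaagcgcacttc
Grb10: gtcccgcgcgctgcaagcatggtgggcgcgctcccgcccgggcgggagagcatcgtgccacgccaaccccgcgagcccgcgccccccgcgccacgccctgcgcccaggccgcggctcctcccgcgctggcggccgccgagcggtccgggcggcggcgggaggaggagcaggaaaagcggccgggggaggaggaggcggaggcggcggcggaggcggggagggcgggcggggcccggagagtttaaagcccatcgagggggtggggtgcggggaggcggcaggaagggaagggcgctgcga

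Of 32851 RefSeq promoter windows of this length, 1.79% hold TGACGTCA, 13.6% TATAAA, 2.71% GCATGCGC and 1.08% GGGGCCCC. The windows differ in base composition. They hold 13 (Meg3), 11 (Ndn) and 45 (Grb10) CpG dinucleotides, against a median of 7 over all windows. RefSeq gives 1 further window each for Meg3 (chr12:109545148-109545447) and Grb10 (chr11:12027922-12028221), with 1 and 9 CpG dinucleotides and none of the 4 motifs. TGACGTCA and GGGGCCCC also occur in the window of Peg3 (chr7:6730370-6730669), and none of the 4 motifs was matched in those of Plagl1, Rian or Mirg. These matches are letters in a window and say nothing about binding in these cells.

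Ndn encodes necdin, a paternally expressed protein that restrains cell division. It was measured at 0.40 (0.11-1.02), 0.64 (0.33-1.12) and 0.44 (0.25-0.72) CPM in the Lin-kit+ libraries. The levels were 72.0 (64.1-80.6) CPM in the Fgd5+ and 84.5 (72.7-97.6) CPM in the HSC-Fgd5+ library, with a fitted log2 fold change of 6.73 (SE 0.18). The reporter-positive libraries overlapped in their intervals and lay far above the others.

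Grb10, an adaptor protein that dampens signalling from insulin and IGF1 receptors, was present in both groups. Lin-kit+ libraries had 4.10 (2.94-5.56), 3.64 (2.83-4.61) and 3.55 (2.96-4.22) CPM. The Fgd5+ library had 44.1 (38.0-51.0) and the HSC-Fgd5+ library 44.3 (35.9-54.1) CPM, and the fitted log2 fold change was 3.04 (SE 0.13). Impact, a paternally expressed regulator of translation that acts on the kinase GCN2, showed the smallest separation of the 5 genes that could be fitted. Its Lin-kit+ levels were 5.0 (3.71-6.59), 7.17 (6.01-8.49) and 7.07 (6.23-7.99) CPM, its reporter-positive levels 34.3 (28.9-40.4) and 36.5 (28.9-45.4) CPM, and its fitted log2 fold change 1.89 (SE 0.17). For both genes the reporter-positive libraries did not differ beyond counting error.

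H19, a maternally expressed noncoding RNA next to Igf2 (chr7:142575529-142578143, minus strand, annotated as a lincRNA), was rare everywhere. It had 0, 1 and 3 UMIs in the Lin-kit+ libraries. In the reporter-positive libraries it had 17 UMIs (4.08 CPM, 2.38-6.53) and 13 UMIs (6.0 CPM, 3.19-10.3). Its fitted log2 fold change of 5.58 (SE 0.51) therefore rests on 4 UMIs of Lin-kit+ cells, 3 of them in 1 cell. The zinc finger genes Plagl1 and Peg3, both paternally expressed, were at the limit of detection and were removed by the filter on low counts. Plagl1 (chr10:13060504-13131694, plus strand) had 1, 1, 3, 2 and 4 UMIs in Lin-kit+ a, b, c, Fgd5+ and HSC-Fgd5+. Peg3 (chr7:6703892-6730431, minus strand) had 0, 0, 0, 1 and 2 UMIs in the same order, so no fold is given.

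All 7 measured genes had both reporter-positive CPM values above all 3 Lin-kit+ values, including the 2 genes with a handful of UMIs. The same held for 61.8% of the 11991 genes that passed the filter and for 55.4% of all genes of the table, and since the choice of the genes used this contrast nothing is read from the count. With library totals in place of TMM factors, the median fitted change of all genes moved up by 0.54 on the log2 scale, and the values above moved with it.

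**Figure D1:**
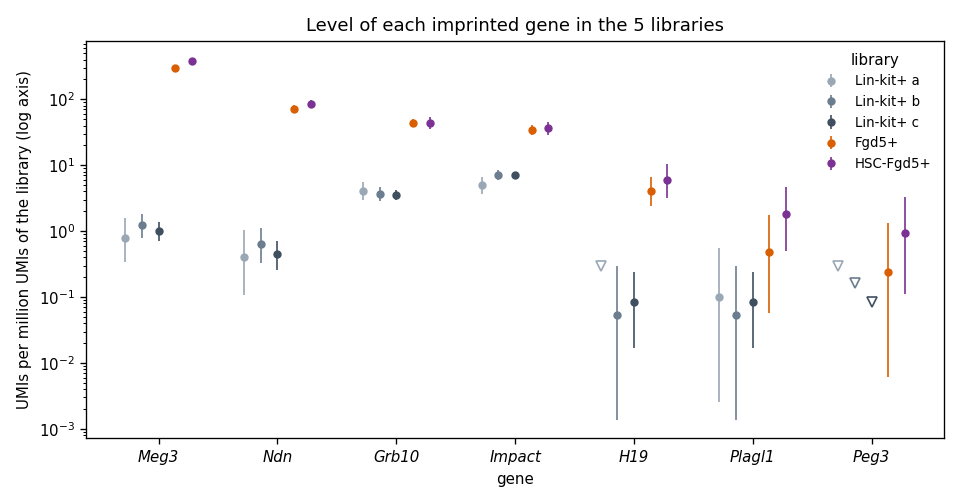
CPM of the 7 measured genes (log axis) in the 3 Lin-kit+ libraries (grey shades) and the Fgd5+ (orange) and HSC-Fgd5+ (purple) libraries, with 95% Poisson intervals. Open triangles mark libraries with 0 UMIs and stand at 3 UMIs per library. Meg3 lies near 1 CPM in the Lin-kit+ libraries and at 293 and 386 CPM in the others. The intervals of Plagl1 overlap, except that of HSC-Fgd5+ with those of Lin-kit+ b and c.

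The share of cells with a UMI depends on depth, so it was also computed after each cell had been thinned to 1200 UMIs, which left out 65 Lin-kit+ and 56 HSC-Fgd5+ cells. A Meg3 UMI was then found in 23.1% (Wilson 95% interval 20.3-26.1) of Fgd5+ and 27.2% (23.4-31.4) of HSC-Fgd5+ cells, but in 0.17% (0.11-0.26) of Lin-kit+ cells. Before thinning the shares were 38.6%, 39.7% and 0.30%. The Meg3 CPM of the reporter-positive libraries did not overlap in their intervals, whereas these shares did. Before thinning, the variance of Meg3 over cells was 5.0 (Fgd5+) and 5.64 (HSC-Fgd5+) times its mean. The CPM intervals of Meg3 are therefore too narrow, and no difference between these libraries is read from them. Ndn was found in 8.07% and 11.7% of thinned Fgd5+ and HSC-Fgd5+ cells and in 0.07% of Lin-kit+ cells. Grb10 shares were 5.80%, 6.91% and 0.45%, and Impact shares 5.17%, 4.32% and 0.96%, in the same order. H19 was found in 0.63% and 0.65% of reporter-positive cells. Plagl1 and Peg3 were found in none of the 793 Fgd5+ and 463 HSC-Fgd5+ thinned cells, which, taking 3 counts as the limit, allows up to 0.38% and 0.65% of cells with a UMI at this depth. Without thinning, Plagl1 was seen in 2 and 4 cells and Peg3 in 1 and 2 cells. The 1778 monocyte-like Lin-kit+ cells held no Meg3 UMI at a median of 6523 UMIs per cell, deeper than the reporter-positive cells (4346 and 3721). They come from libraries in which Meg3 is scarce, so they do not measure free Meg3 RNA in the reporter-positive libraries, which was not tested.

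Meg3 was unevenly spread over the reporter-positive cells, as shown by the counts of cells below. Of Fgd5+ cells, 306 of 793 had at least 1 Meg3 UMI and single cells had up to 21. Of HSC-Fgd5+ cells, 206 of 519 had at least 1 and single cells up to 20. Cells with 5 or more Meg3 UMIs made up 12.7% of each library and held 63.2% and 65.0% of its Meg3 UMIs. At 1200 UMIs per cell the variance of Meg3 over cells was 2.86 and 2.69 times its mean, where a ratio near 1 is expected from counting alone. That ratio was 1.01 and 1.07 for Ndn, 1.06 and 0.93 for Grb10, and 1.08 and 0.96 for Impact, all of which have lower means, at which unevenness is harder to see. Meg3 was therefore also set beside genes with a mean within 1.5 times its own, in the stem cell cluster described below. There it ranked first in the Fgd5+ library (2.82, against a median of 1.04 over 190 such genes) and second in the HSC-Fgd5+ library (2.66, against 1.06 over 153 genes). The antigen presentation gene Cd74 was its neighbour in both, with 2.60 and 2.97.

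**Figure D2:**
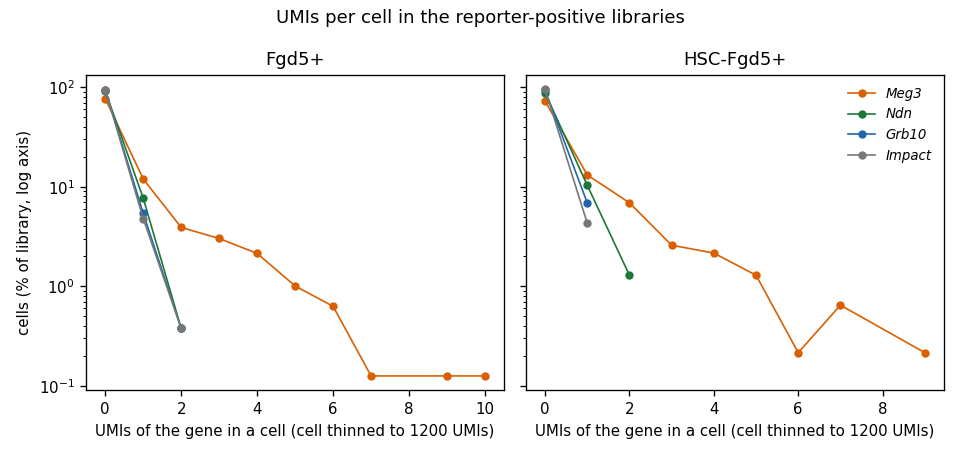
Share of cells (%, log axis) by the number of UMIs of Meg3, Ndn, Grb10 and Impact in a cell thinned to 1200 UMIs, in the Fgd5+ and HSC-Fgd5+ libraries. Meg3 reaches 10 and 9 UMIs, and the other genes stop at 1 or 2.

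Clusters of cells were made without the 9 genes, the other imprinted genes listed further below and Fgd5, so that levels of the 9 genes could not shape them. Of the reporter-positive cells, 735 Fgd5+ and 485 HSC-Fgd5+ cells fell into 1 cluster, which 11 of the 12 HSC markers supported (the stem cell cluster). A further 43 and 26 cells fell into a cluster that the same HSC markers supported, several of them at lower levels (the division cluster). It also held division genes such as Mki67 and Top2a, whose summed level was 3566 and 4232 CPM against 125 and 129 CPM in the stem cell cluster. Cells of the division cluster were deeper, with medians of 9920 and 9996.5 UMIs against 4217 and 3603, and the part of depth in what follows was not tested.

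Meg3 was lower in the division cluster in both libraries. In the Fgd5+ library it was 331 CPM (312-350) in the stem cell cluster and 57.8 CPM (37.7-84.6) in the division cluster. In the HSC-Fgd5+ library it was 445 CPM (415-476) and 22.6 CPM (8.31-49.3). After thinning, a Meg3 UMI was found in 24.9% and 29.1% of cells of the stem cell cluster and in 0 of 43 and 1 of 26 cells of the division cluster. The division cluster was defined with 1 setting of the clustering, and with a finer setting (resolution 2) it held 97 and 48 cells with 44.7 and 50.3 CPM of Meg3, against 372 and 477 CPM in the other clusters of reporter-positive cells.

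Grb10 had the same order of CPM, with 49.5 CPM (42.5-57.3) against 8.89 CPM (2.42-22.8) in Fgd5+ cells and 48.2 CPM (38.8-59.2) against 11.3 CPM (2.33-33.1) in HSC-Fgd5+ cells. Cdkn1c, the imprinted gene of the cyclin-dependent kinase inhibitor p57, was 31.2 CPM (25.7-37.6) against 6.66 CPM (1.37-19.5) in Fgd5+ cells. In HSC-Fgd5+ cells its values of 27.3 CPM (20.3-35.9) and 7.54 CPM (0.91-27.3) overlapped in their intervals. After thinning, the shares of cells with a Grb10 UMI overlapped in their intervals, at 6.12% against 0 of 43 Fgd5+ cells and 7.23% against 0 of 26 HSC-Fgd5+ cells, so the difference was not detectable at equal depth. Not every imprinted gene had this order. Impact was 36.5 CPM (30.5-43.3) against 24.4 CPM (12.2-43.7) in Fgd5+ cells and 37.5 CPM (29.2-47.4) against 30.2 CPM (13.03-59.5) in HSC-Fgd5+ cells, with overlapping intervals. Ndn overlapped in Fgd5+ cells (76.3 and 53.3 CPM) but was 93.2 CPM (79.9-108) against 18.9 CPM (6.12-44.0) in HSC-Fgd5+ cells, where its thinned shares overlapped (11.9% and 3.85%). Phlda2, a growth-restraining gene of the placenta, was 26.8 against 24.4 CPM and 25.2 against 30.2 CPM. Igf2r, whose product clears the growth factor IGF2, had the opposite order of values, 7.74 against 20.0 CPM and 8.57 against 15.1 CPM, with overlapping intervals. The lower level was not particular to imprinted genes. Procr was 135 against 35.5 CPM in Fgd5+ cells and 164 against 26.4 CPM in HSC-Fgd5+ cells. Ly6a was 296 against 91.1 CPM and 293 against 67.9 CPM, and Mllt3 326 against 93.3 CPM and 341 against 79.2 CPM. The intervals of these HSC markers did not overlap, while those of the HSC markers Slamf1, Hoxb5 and Ctnnal1 did. Each value is a sum over cells of 1 library, so none of these differences has a test.

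Within the stem cell cluster, thinned cells with a Meg3 UMI (183 Fgd5+ and 125 HSC-Fgd5+ cells) were set beside those without one (552 and 304 cells). The split was chosen after the data had been seen, and cells without a UMI include cells in which Meg3 was missed. Dlk1, the paternally expressed neighbour of Meg3, was at 22.3 CPM (12.99-35.7) in Fgd5+ cells with and 1.75 CPM (0.57-4.09) in those without a Meg3 UMI. In HSC-Fgd5+ cells the values were 34.6 CPM (20.1-55.3) and 4.56 CPM (1.67-9.93). Counted over all cells of a library without thinning, 16 of 19 Fgd5+ cells and 15 of 19 HSC-Fgd5+ cells with a Dlk1 UMI also had a Meg3 UMI. Most cells with a Dlk1 UMI thus also had Meg3, whereas 5.23% and 7.28% of the cells with a Meg3 UMI had a Dlk1 UMI.

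H19 was also more often found with Meg3, at 13.1 CPM (6.29-24.1) against 2.45 CPM (0.99-5.05) in Fgd5+ cells and 16.3 CPM (7.02-32.0) against 2.28 CPM (0.47-6.67) in HSC-Fgd5+ cells. It was seen in 10 and 9 reporter-positive cells in all, of which 8 and 6 had a Meg3 UMI, and 1 in each library had a UMI of its neighbour Igf2. Ndn, Grb10 and Cdkn1c had overlapping intervals in cells with and without a Meg3 UMI, at 85.3 and 73.9, 51.2 and 49.0, and 42.0 and 28.4 CPM in the Fgd5+ library. Impact was 61.7 CPM (45.3-82.0) against 29.8 CPM (23.8-36.8) in Fgd5+ cells, but 38.6 against 38.0 CPM in HSC-Fgd5+ cells.

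Some HSC markers, but not all, were higher in the cells with a Meg3 UMI, though far less than Dlk1. Hlf, a transcription factor of HSCs, was 390 CPM (347-437) against 304 CPM (284-325) in Fgd5+ cells and 407 CPM (352-467) against 289 CPM (261-320) in HSC-Fgd5+ cells. Procr, the surface receptor EPCR, was 178 CPM (150-211) against 124 CPM (111-138) in Fgd5+ cells, and 207 CPM (169-252) against 148 CPM (128-170) in HSC-Fgd5+ cells, where the intervals overlapped at their ends. Mllt3, a chromatin regulator, was 462 CPM (415-513) against 290 CPM (271-311) in Fgd5+ cells, and its intervals overlapped in HSC-Fgd5+ cells (380 and 326 CPM). Meis1 had the opposite order in Fgd5+ cells, at 270 CPM (235-310) against 312 CPM (292-333). Before thinning, 63.4% and 76.6% of these cells had a Meis1 UMI. In HSC-Fgd5+ cells Meis1 was 354 and 304 CPM, and its intervals overlapped in both libraries. Ctnnal1 was 27.5 and 22.4 CPM in Fgd5+ cells and 22.4 and 30.4 CPM in HSC-Fgd5+ cells, with overlapping intervals. The platelet gene Vwf (48.5 and 61.6 CPM in Fgd5+ cells, 61.0 and 60.1 CPM in HSC-Fgd5+ cells) and Slamf1, which encodes CD150, (44.6 and 37.5 CPM, 32.5 and 44.9 CPM) had overlapping intervals. Division genes were at 34.1 against 150 CPM in Fgd5+ cells, while in HSC-Fgd5+ cells they overlapped (114 and 135 CPM). Cells with a Meg3 UMI had fewer UMIs in all (medians of 3634 and 3580 against 4452.5 and 4205.5), and the part of this in the differences was not tested.

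**Figure D3:**
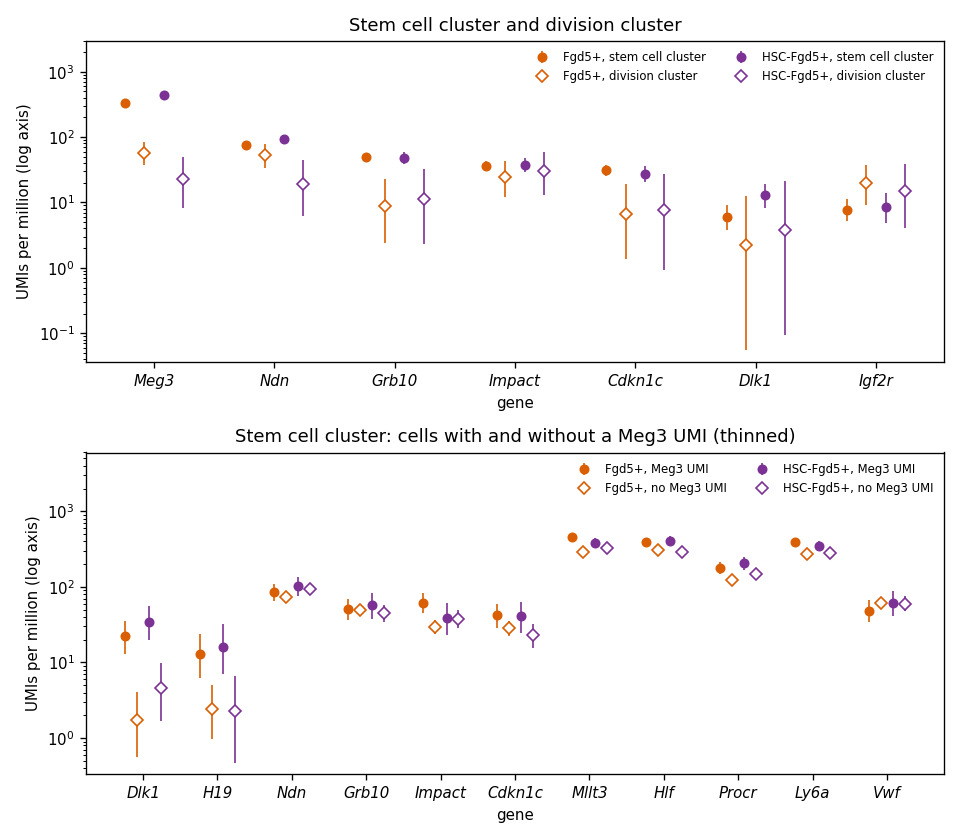
CPM (log axis) with 95% Poisson intervals in reporter-positive cells, Fgd5+ in orange and HSC-Fgd5+ in purple. The upper panel sets the stem cell cluster (filled) beside the division cluster (open) and shows Meg3 at 331 and 445 against 57.8 and 22.6 CPM. The lower panel sets cells of the stem cell cluster with a Meg3 UMI (filled) beside those without one (open) and shows Dlk1 at 22.3 and 34.6 against 1.75 and 4.56 CPM.

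Among Lin-kit+ cells, the few Meg3 UMIs were concentrated in the least differentiated cells. Only 23 of 11581 Lin-kit+ cells fell into the stem cell and division clusters, and they held 20 of the 67 Meg3 UMIs, in 7 cells, which makes 295 CPM (180-455). By library these cells had 3, 2 and 15 UMIs in 7, 7 and 9 cells. Lymphoid-primed multipotent-like cells (1605 cells named from Flt3, Dntt and other markers) held a further 41 UMIs in 24 cells, at 4.25, 8.91 and 4.66 CPM by library, with a mean of 5.94 ± 2.58 CPM (SD, n = 3). At the finer setting of the clustering, a Lin-kit+ cluster of 472 cells with HSC markers such as Procr, Hlf, Mecom, Ly6a and Meis1, led by Wfdc17 and left unnamed, held 34 of the 67 UMIs (23.1 CPM, 16.0-32.2). Its libraries ranged from 7.16 to 46.0 CPM. This finer cluster overlaps the lymphoid-primed class, so their UMIs are not to be added. The 11087 Lin-kit+ cells outside the stem cell, division and finer clusters, which include lymphoid-primed cells, held 13 UMIs (0.21 CPM, 0.11-0.35). Monocyte-like, early and late neutrophil-like and mast or basophil-like cells held none, with 1778, 930, 1262 and 490 cells.

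Ndn had a similar distribution but extended to the megakaryocyte lineage. The 455 megakaryocyte-like cells, with markers such as Pf4 and Itga2b, had 5.49 CPM (2.63-10.1), from 10 of the 32 Ndn UMIs of Lin-kit+ cells. Lymphoid-primed cells had 2.3 CPM (1.31-3.73) and erythroid-like cells 0.46 CPM (0.06-1.65), and the same 4 classes that lacked Meg3 also held no Ndn UMI.

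Grb10 differed from both, since its highest level among the larger Lin-kit+ classes was in erythroid-like cells. These 926 cells, 8.0% of the Lin-kit+ cells, held 116 of 237 Grb10 UMIs. By library they had 30.6 (18.1-48.4), 25.2 (17.1-35.8) and 26.0 (20.2-33.1) CPM, with a mean of 27.3 ± 2.92 CPM (SD, n = 3), while whole reporter-positive libraries had 44.1 and 44.3 CPM. Megakaryocyte-like cells had 9.88 CPM (5.86-15.6), cells of an unnamed cluster led by the eosinophil granule genes Prg3, Prg2 and Epx 7.16 CPM (5.09-9.78), mast or basophil-like cells 5.61 CPM (2.80-10.0) and lymphoid-primed cells 5.46 CPM (3.87-7.50), and these 4 overlapped in their intervals. Early neutrophil-like (0.54 CPM), monocyte-like (0.24 CPM) and late neutrophil-like (0.15 CPM) cells were the lowest of the named classes. The unnamed cluster led by Prg3 also had the early neutrophil markers Elane, Mpo, Ctsg, Ms4a3 and Gfi1. It held 39 of the 237 Grb10 UMIs, against 3 in the named early neutrophil-like class. The low level of that class thus depends on where the clustering drew its border. Unnamed clusters of 973 and 534 cells held no Grb10 UMI, and another of 768 cells had 0.18 CPM.

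Impact was spread over most classes. Megakaryocyte-like cells had 15.9 CPM (10.7-22.9), lymphoid-primed cells 14.4 CPM (11.7-17.5) and erythroid-like cells 10.5 CPM (7.67-14.0), and these neighbours overlapped. Mast or basophil-like cells had 7.14 CPM (3.90-12.0), monocyte-like cells 6.74 CPM (5.38-8.35), early neutrophil-like cells 3.45 CPM (2.08-5.39) and late neutrophil-like cells 0.91 CPM (0.33-1.98). The 23 Lin-kit+ cells of the stem cell clusters held no Impact UMI, which at their depth allows up to 54.4 CPM. At the finer setting, at which fewer cells kept the lymphoid-primed name, these had 0.73 CPM of Grb10, 2.18 CPM of Meg3 and 13.1 CPM of Impact.

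**Figure D4:**
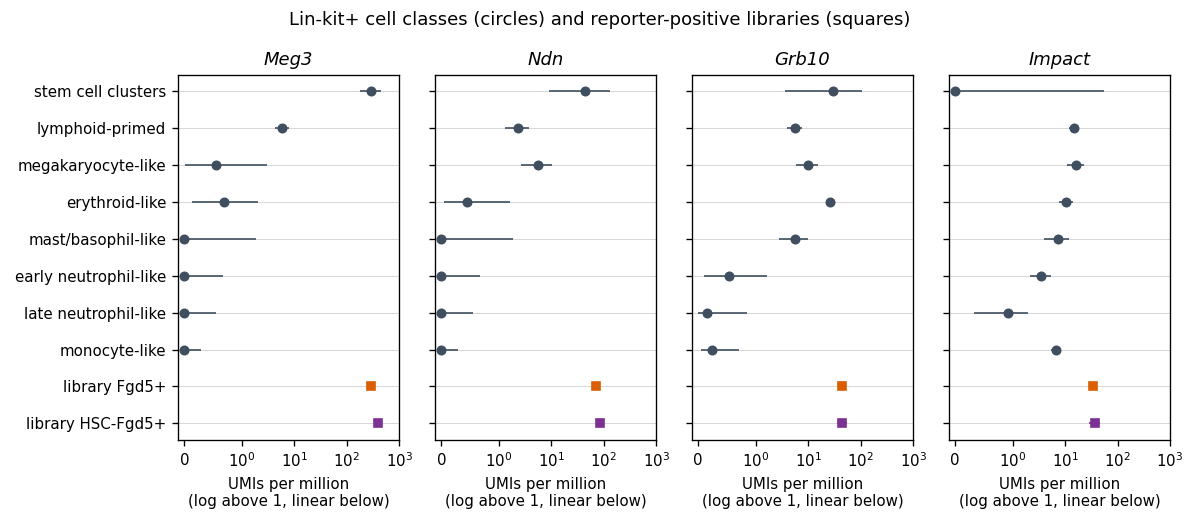
CPM of Meg3, Ndn, Grb10 and Impact (log scale above 1, linear below) in 8 classes of Lin-kit+ cells (circles) and in the whole reporter-positive libraries (squares), with 95% Poisson intervals. Meg3 and Ndn are at 0 in neutrophil-like, monocyte-like and mast or basophil-like cells, and Grb10 stands at 26.4 CPM in erythroid-like cells.

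The genes whose pattern was most like that of a member were found by the Pearson correlation of log2(CPM + 1) over 9 points, namely 7 named Lin-kit+ classes and the reporter-positive libraries, among 9479 genes with at least 200 UMIs. The points share libraries and differ in depth, so r is a description. For Meg3 they were Gm4951 (0.992), Cpne8 (0.990) and Wfdc2 (0.986), and 60 genes reached 0.95. For Ndn they were Jam3 (0.996), Upp1 (0.994) and Bgn (0.993), with 88 genes at 0.95 or more. For Grb10 they were Slc7a4 (0.989), the erythroid blood group gene Art4 (0.985) and the imprinted gene Phlda2 (0.985), with 67 genes. For Impact they were Zfp871 (0.996), Prrc2b (0.994) and Cbx6 (0.993), with 529 genes, so its pattern was the most common of the 4.

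Other imprinted genes were examined through a list of 51 genes from general knowledge, of which 34 had a row and 29 passed the filter on low counts. The list was not picked for how its genes moved, but it was made with earlier results of these data known. With edgeR's quasi-likelihood test over all 11991 genes, 19 of the 29 were higher in the reporter-positive libraries and 3 were lower at an adjusted p below 0.05, while 7 did not pass. Over all genes tested 32.7% were higher and 30.4% were lower. The median fitted log2 fold change was 1.04 over the list and 0.07 over all genes. Of the 29 genes tested, 16 were higher by at least 2-fold, as were 21.9% of all genes tested. The filter keeps a gene that is high enough in either group alone. Dlk1, Igf2, Cdkn1c, Snrpn, Mkrn3, Airn and Sfmbt2 passed it only through their reporter-positive levels, and all are among the 19 and the 16. Rasgrf1, also scarce in Lin-kit+ libraries but with no reporter-positive UMI, was removed. The counts of 19 and 16 are therefore a description and no independent support.

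Genes that restrain or drive growth were among them. Cdkn1c had 0.30, 0.37 and 0.28 CPM in the Lin-kit+ libraries and 27.8 and 24.5 CPM in the reporter-positive libraries, a log2 fold change of 5.84 (SE 0.22, adjusted p = 3.2e-06, edgeR). Dlk1 had no UMI in the 3 Lin-kit+ libraries and 23 and 25 UMIs (5.52 and 11.5 CPM) in the others, which is at least 164-fold higher when 3 UMIs are taken for the Lin-kit+ group (adjusted p = 4.8e-04, edgeR). Igf2 had no UMI against 12 and 10 UMIs (2.88 and 4.62 CPM), at least 75.0-fold higher (adjusted p = 5.8e-04, edgeR). Igf2r had 2.0, 2.52 and 2.16 CPM against 9.12 and 9.69 CPM (log2 1.52, SE 0.21, adjusted p = 6.9e-04, edgeR). Igf2 could not be tested without either reporter-positive library, as it then failed the filter. Cdkn1c, Dlk1 and Igf2 passed the filter only through their reporter-positive levels, so their p-values are no independent support.

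Of the genes near Ndn on chromosome 7 that could be tested, Snrpn, Mkrn3, Peg12 and Ube3a passed as higher and Atp10a (log2 -0.03, SE 0.32) did not pass. Snrpn, whose product is a splicing protein, had 0.10, 0.05 and 0.06 CPM against 9.36 and 7.38 CPM (log2 6.40, SE 0.37), and Mkrn3 rose by 3.59 (SE 0.73) and Peg12 by 1.04 (SE 0.32). With 519 cells drawn per library, Mkrn3, Peg12, Igf2 and Osbpl5 failed the filter on low counts and had no test. Reads of Snrpn and the overlapping Snurf may not be told apart. Airn, a noncoding RNA that overlaps Igf2r on the opposite strand, was higher by 4.34 (SE 0.31), and since strand-specific counting is not stated it cannot be separated from Igf2r. The imprinted genes Phlda2 (3.04) and Slc22a18 (2.14) near Cdkn1c were also higher on the log2 scale. So were Sgce (3.71) and Ppp1r9a (2.92), which lie near each other, and the polycomb gene Sfmbt2 (2.45).

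Blcap (1.20), Osbpl5 (1.16) and the trafficking gene Trappc9 (1.04) were higher by about 2-fold. With DESeq2, Osbpl5 (adjusted p = 0.11) and Peg12 (adjusted p = 0.15) did not pass. Osbpl5 (adjusted p = 0.42) and Peg12 (adjusted p = 0.50) did not pass edgeR's test without the Fgd5+ library, and Peg12 not without Lin-kit+ c (adjusted p = 0.052). The genes Kcnq1ot1, Cd81 and Ube3a were higher by less than 2-fold. Commd1, a regulator of NF-kB, was lower, with 143, 139 and 150 CPM against 95.001 and 88.2 CPM (log2 -1.19, SE 0.08). Tssc4 (-0.73) and Gnas (-0.32), which encodes a stimulatory G protein subunit, were lower with TMM factors. With library totals Gnas was higher by 0.22, so its direction depends on the scaling, while Tssc4 was at -0.19 and did not pass. Kcnq1ot1, Cd81, Ube3a, Tssc4 and Gnas were named after their values had been seen.

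**Figure D5:**
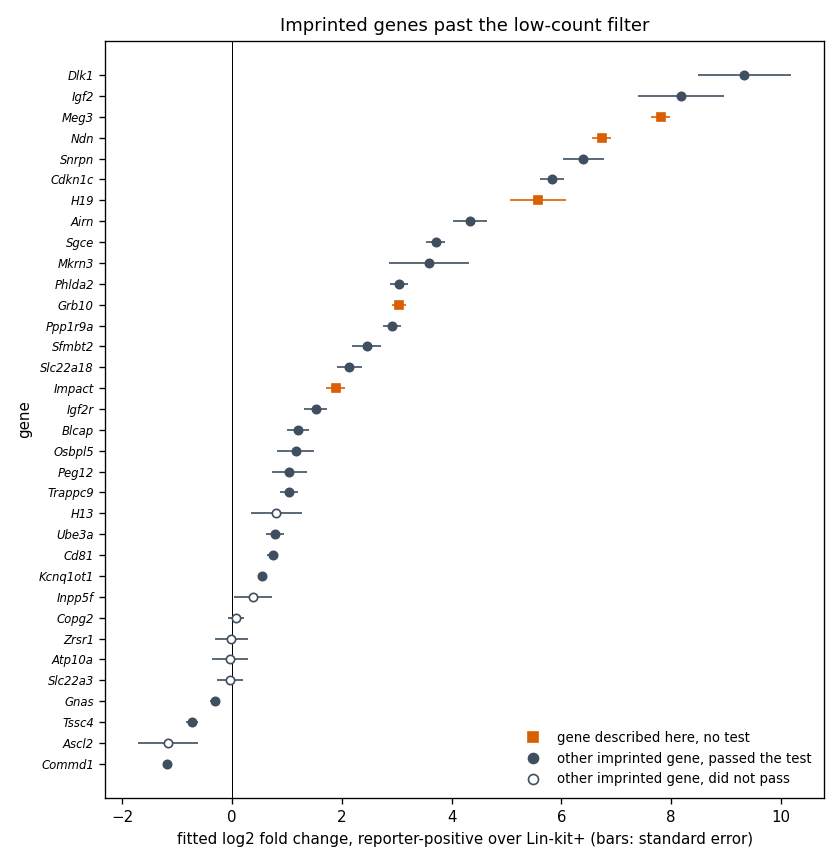
Fitted log2 fold change of reporter-positive over Lin-kit+ libraries (x axis, bars give the standard error) for the imprinted genes that passed the filter on low counts. Squares are the genes described here without a test, filled circles passed edgeR's test and open circles did not. Values of Dlk1 and Igf2, which had no UMI in Lin-kit+ libraries, depend on the fit's prior count.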

How the data were processed

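The authors processed reads of 10x Chromium 3' libraries, and the submitters' processing notes name Cell Ranger 1.3 and 2.1, Seurat 2.3.4 and mm10 (GRCm38), with no annotation or strand setting. The authors deposited raw UMI counts in 1 table, used here unscaled. Cells were not filtered in the values reported.

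UMI counts were summed per library and tested with edgeR 4.0.16 (R 4.3.3, filterByExpr, TMM, quasi-likelihood test, Benjamini-Hochberg adjustment over all genes tested), checked on simulated data. The members and lists were chosen with earlier results of these data known, so members have no test and the test of the list is no independent support. CPM used library totals, with exact Poisson intervals, and shares used Wilson intervals.

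Cells were clustered (scanpy 1.11.5, 2000 variable genes without the members, the listed other imprinted genes and Fgd5, 20 components, 15 neighbours, Leiden resolution 1). Clusters were named from marker lists from at least 3 markers, each 2-fold above the remaining cells and present in at least 5% of the cluster. Scrublet called 168 doublets, which were kept. Named genes were the members, other imprinted genes called with a change of at least 2-fold, Cdkn1c, Igf2, Igf2r and Dlk1, and the 3 genes most correlated with each member of at least 100 UMIs. H13, Rasgrf1 and the HSC markers compared within the stem cell cluster were chosen after the data had been seen. Gene positions are from GENCODE M21 and promoter sequences from RefSeq, both on GRCm38. The motifs searched were chosen after the sequences had been seen. The windows of H19 and Impact were not used here. Depth (2166655 to 36080242 UMIs per library) limits Plagl1, Peg3 and H19.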

Additional observations from a re-analysis of the deposited data

How the results depend on the processing

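The number of other imprinted genes called higher, 19, was 18 with DESeq2 (Osbpl5 and Peg12 lost, Asb4 new), 23 with library totals, 20 without the filter on low counts and 15 with 519 cells drawn per library (Igf2, Osbpl5, Mkrn3 and Peg12 lost, as they failed the filter), and ranged from 16 to 20 with each library left out. The number called lower, 3, was 1 with library totals, because scaling by totals moved all fitted changes up. It was 2 with 519 cells drawn per library (Gnas lost), and ranged from 2 to 3 with each library left out. Without the filter on low counts, Rasgrf1 was called lower as well. Gnas reversed with library totals, to a log2 fold change of 0.22. Filters on cells, doublets, cells with stromal markers or Lin-kit+ cells of the stem cell clusters left both counts at 19 and 3. The count of genes with both reporter-positive CPM above all Lin-kit+ values, 7, was 6 with equal cell numbers, and was 7 with each library left out. For shares of thinned cells the count was 5, and it was 6 at 2000 UMIs and 7 without thinning. Fitted changes of Meg3 ran from 7.198 (equal cell numbers) to 8.35 (library totals), and H19 ran from 5.31 to 6.11. Leaving the 23 Lin-kit+ cells of the stem cell clusters out, added after the data had been seen, took the ratio of mean Meg3 CPM from 336 to 461, and drawing equal cell numbers took it to 213. No paired analysis was possible because the libraries in the table carry no replicate numbers. Without replicates of either gate, a difference between the Fgd5+ and HSC-Fgd5+ libraries has no test. The division cluster was not separate at resolution 0.5 or with 30 neighbours, and the megakaryocyte-like class had no value under these settings.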

Other observations

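Cells with a UMI of Vwf, a gene of platelet-biased stem cells, did not stand apart in Meg3. After thinning, 43 Fgd5+ cells with a Vwf UMI had 282 CPM (222-354) of Meg3 and the other 750 had 294 CPM (277-312). The 33 HSC-Fgd5+ cells with one had 347 CPM (256-461) and the other 430 had 379 CPM (352-407). Grb10 was 45.8 and 44.0 CPM in Fgd5+ cells, and 79.6 CPM (39.7-142) against 41.7 CPM (33.1-51.7) in HSC-Fgd5+ cells, with overlapping intervals. Before thinning, 115 of the other 750 Fgd5+ cells and 61 of the other 430 HSC-Fgd5+ cells also had a Vwf UMI. The split therefore separates cells with Vwf poorly, and the lack of a difference says little.

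H13, another imprinted gene, varied among the Lin-kit+ libraries, from 32.4 CPM in c to 110 CPM in a, and had 166 and 146 CPM in the reporter-positive libraries. It did not pass edgeR's test (adjusted p = 0.17), and passed it with library totals or without Lin-kit+ a. Rasgrf1 had 34 UMIs in the Lin-kit+ libraries and 0 in the reporter-positive libraries and did not pass the filter on low counts. Without that filter it was called lower.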
